A study of Mus musculus with 14 samples.

Results

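Interferon-stimulated genes and nucleic acid sensors were examined in mouse MLL-AF9 leukemia cells with and without targeting of Sgf29, which encodes a Tudor domain subunit of the SAGA and ATAC histone acetyltransferase complexes. The set holds 57 genes, chosen by symbol as interferon-induced antiviral genes, cytosolic sensors and guanylate-binding proteins, out of 22155 genes in the count table. All 57 were found in the table. The choice used no measured value of these genes, but it was made with other results of these libraries known.

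RNA sequencing was performed on 6 libraries, 3 of cells transduced with sgCtrl, an sgRNA against nonessential sequence, and 3 of cells transduced with sgSgf29. Both groups were the same Cas9-expressing MLL-AF9 cells, derived from mouse bone marrow transformed with the retroviral fusion, passed through recipient mice and cultured with SCF, IL-3 and IL-6, and both carried an ipUSEPR lentivirus and were kept in puromycin at 2 μg/ml for 3 days. The labels do not say whether the numbers of the libraries stand for separate cultures or for several sgRNAs against one target. The p-values therefore measure only the spread between these libraries, which may be technical. Reads assigned to genes numbered 16003990 to 21786618 per library, and 3 counts correspond to 0.135 to 0.201 CPM, the unit used below (counts scaled to a common library size, after TMM, trimmed mean of M values, normalization). Sgf29 mRNA was lower in the sgSgf29 cells, with a mean of 14.5 ± 2.59 CPM (SD, n = 3) against 39.0 ± 2.47 CPM. All 6 genes listed as markers of these leukemia cells were detected in every library, and 3 were higher in sgSgf29 (Ptprc, Meis1 and Itgam, the last by 1.96 on the log2 scale) and 3 lower (Hoxa9, Kit and Mpo, by -1.37, -0.74 and -1.83).

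Interferons are secreted cytokines that signal through receptors and the JAK kinases to transcription factors in the nucleus. Known elements of the promoters they act on are the interferon-stimulated response element (ISRE) and the gamma-activated sequence (GAS). The genes that answer encode proteins that block viral entry, bind or degrade viral RNA, attach the ubiquitin-like protein ISG15 to other proteins or attack intracellular pathogens. The sensors stand upstream, detecting DNA or double-stranded RNA in the cytosol and inducing interferon genes, and many sensors are interferon-induced themselves.

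The promoters of several members carry the letters of the response element before the start of the gene, and those shown here were chosen to span genes that were higher, genes that were lower and genes too low to test. Each is 60 bases of the RefSeq promoter on GRCm38.p6, written 5′ to 3′ on the strand of the gene, with the letters of the ISRE (GAAA, any 2 bases and GAAA again, on either strand) in capitals.
Isg15, chr4:156200850-156200909, minus strand: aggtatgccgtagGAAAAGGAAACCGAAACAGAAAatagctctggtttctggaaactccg
Gbp7, chr3:142530258-142530317, plus strand: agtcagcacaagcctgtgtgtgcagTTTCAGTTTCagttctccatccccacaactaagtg
Igtp, chr11:58199496-58199555, plus strand: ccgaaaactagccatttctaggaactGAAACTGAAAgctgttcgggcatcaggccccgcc
Irgm1, chr11:48871421-48871480, minus strand: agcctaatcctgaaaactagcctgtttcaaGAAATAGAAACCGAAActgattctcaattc
Bst2, chr8:71537562-71537621, minus strand: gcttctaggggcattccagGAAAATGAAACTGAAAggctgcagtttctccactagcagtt
Gbp2, chr3:142620579-142620638, plus strand: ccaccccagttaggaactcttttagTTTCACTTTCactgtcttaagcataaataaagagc
Ifit1, chr19:34640779-34640838, plus strand: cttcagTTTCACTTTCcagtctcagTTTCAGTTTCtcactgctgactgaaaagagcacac

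Isg15, Gbp7, Igtp and Irgm1 were higher in the sgSgf29 cells, Bst2 was lower, and Gbp2 and Ifit1 were too low to test. Isg15 holds 3 overlapping matches of the element. RefSeq promoter windows, from 250 bases before the start to 50 after it, were matched to 42 of the 57 members by symbol, giving 51 windows because some genes have several starts. The ISRE letters were in 21 of the 51 windows (41.2%), against 3.44% of all 32851 RefSeq promoter windows and 3.13% of the 11146 windows of genes tested here. The GAS letters (TTC, any 3 bases and GAA, on either strand, which can overlap the ISRE) were in 11 windows (21.6%), against 8.30% of all windows. By outcome, the ISRE letters were in 13 of 36 windows of members that were higher, 2 of 4 that were lower, 2 of 3 that did not pass the threshold and 4 of 8 that could not be tested. Members of every outcome thus held them. A match is only a match of letters and not evidence of binding.

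Most of the measurable members were higher in the sgSgf29 cells. Of the 57, 45 had enough counts to be tested, and 38 of these were higher, 4 were lower and 3 did not pass an adjusted p under 0.05 in edgeR's quasi-likelihood test, adjusted over all 11169 genes tested. The background was large, since 69.8% of all genes tested were called, 35.4% as higher and 34.4% as lower. Among the tested members, 84.4% were higher and 8.89% were lower. A change of 2-fold or more was seen for 26 members that were higher and for 0 that were lower, against 10.1% and 4.67% of all genes. The 3 sgSgf29 libraries lay above the 3 sgCtrl libraries for 37 members and below them for 4, where 37.0% and 35.1% of all genes were so separated. The median log2 fold change was 1.24 over the tested members, ranging from -0.95 to 4.14, against 0.01 over all genes.

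**Figure D1:**
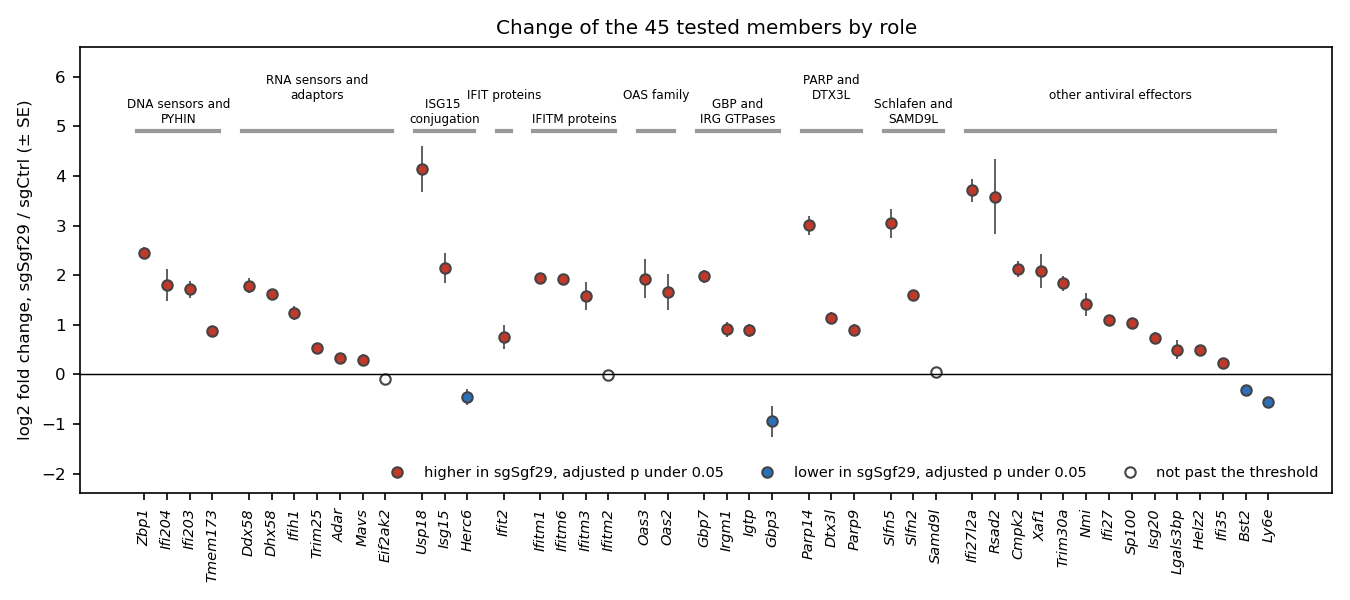
Log2 fold change of sgSgf29 over sgCtrl for the 45 tested members, grouped by role, with bars showing the standard error. The 38 members that were higher are red, the 4 that were lower (Herc6, Gbp3, Bst2 and Ly6e) are blue, and the open points are Eif2ak2, Ifitm2 and Samd9l.

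The filter on low counts bears on these numbers. Of the 45 tested members, 9 reached the filter of about 0.556 CPM through the sgSgf29 libraries and not in every sgCtrl library (Ifi204, Isg15, Usp18, Oas2, Oas3, Slfn5, Ifi27l2a, Rsad2 and Xaf1), so their being tested rested on the sgSgf29 libraries and their direction is no support. The other 36 comprised 29 that were higher, 4 that were lower and 3 that did not pass, with a median log2 fold change of 0.91. All 9 were among the 26 members higher by 2-fold or more and the 37 with separated libraries. Among the other 36, 17 were higher by 2-fold or more and 0 were lower by as much. The sgSgf29 libraries lay above the sgCtrl libraries for 28 of the 36 and below them for 4. The median change also differed with level. The 17 tested members with a mean of at least 20 CPM had a median log2 fold change of 0.53, with 12 higher and 2 lower. Of the 7080 genes of that level, 34.5% were higher and 41.4% were lower. The 15 members between 5 and 20 CPM had a median of 1.61, with 14 higher, Ifi27l2a among them, and 1 lower. At that level, 40.1% of 2362 genes were higher and 25.1% were lower. The 13 tested members under 5 CPM had a median of 1.81, with 12 higher and 1 lower, against 32.8% and 18.4% of 1727 genes. Those 13 include the rest of the 9 members whose direction is no support.

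**Figure D2:**
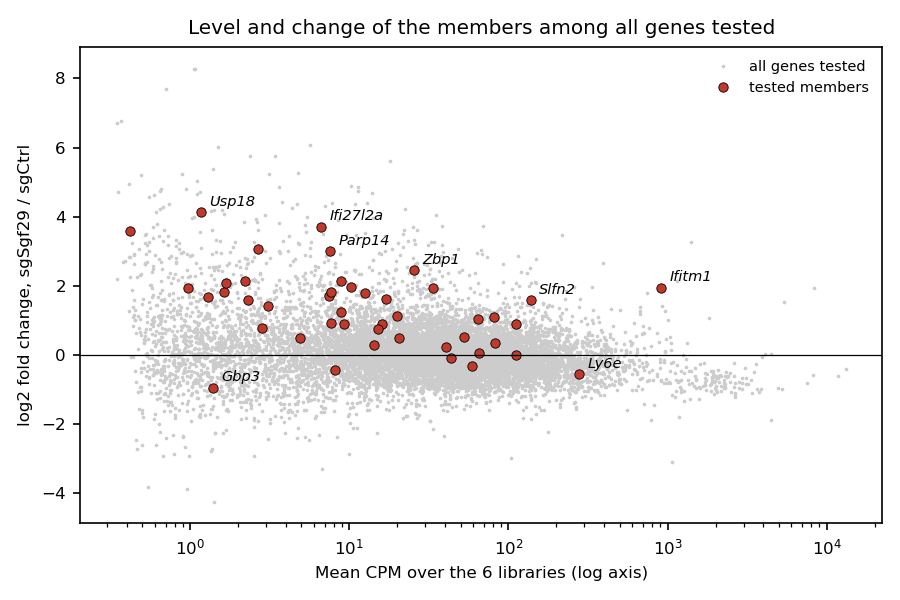
Log2 fold change of sgSgf29 over sgCtrl on the y axis against mean CPM over the 6 libraries on a log x axis, for all 11169 genes tested (grey) and the 45 tested members (red). Ifitm1 stands at the right with a log2 fold change of 1.95, Ly6e lies below 0 at -0.56, and Usp18 is the highest of the members at 4.14.

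The 4 DNA sensors and PYHIN genes of the set were higher. Zbp1, a sensor of Z-form nucleic acids that can trigger necroptosis, changed most among the sensors and is found at chromosome 2, 173206612 to 173218959 (GRCm38). It measured 6.04, 9.04 and 8.64 CPM in sgCtrl and 47.0, 43.0 and 40.0 CPM in sgSgf29. The groups were far apart, the log2 fold change being 2.45 (standard error 0.12, adjusted p = 3.5e-13). Tmem173 (Sting1 in RefSeq), the membrane protein that relays the signal of cytosolic DNA, measured 77.1, 75.5 and 83.4 CPM in sgCtrl and 151, 142 and 142 CPM in sgSgf29. It was higher in each sgSgf29 library, by 0.88 on the log2 scale (standard error 0.07, adjusted p = 2.2e-10). Ifi203 and Ifi204 belong to the PYHIN family, whose members bind DNA. Ifi203 measured 3.81, 2.41 and 4.15 CPM in sgCtrl and 12.5, 11.6 and 10.5 CPM in sgSgf29 (log2 fold change 1.71, standard error 0.17, adjusted p = 2.1e-08). Ifi204 was close to the filter in the control cells, at 0.699, 1.00 and 0.50 CPM, and reached 3.11, 2.07 and 2.44 CPM in sgSgf29 (log2 fold change 1.81, standard error 0.33, adjusted p = 5.1e-05). It did not reach the filter in every sgCtrl library, so its direction is no support. The PYHIN genes are related genes in a cluster, so the division of reads between Ifi203, Ifi204 and their neighbours may be uncertain, which was not examined.

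The RIG-I-like receptors, which detect viral double-stranded RNA, were also higher as a group. Ddx58, which encodes RIG-I, measured 4.70, 4.95 and 6.99 CPM in sgCtrl and 17.0, 22.4 and 18.7 CPM in sgSgf29. Its log2 fold change was 1.79 (standard error 0.15, adjusted p = 1.4e-09). Dhx58, which encodes the regulatory receptor LGP2, measured 7.56, 9.37 and 8.09 CPM in sgCtrl and 25.3, 25.8 and 25.3 CPM in sgSgf29, with a change of 1.61 on the log2 scale (standard error 0.11, adjusted p = 5.4e-11). Ifih1, which encodes MDA5, the receptor of long double-stranded RNA, measured 5.78, 5.56 and 4.45 CPM in sgCtrl and 13.2, 12.3 and 11.6 CPM in sgSgf29. All 3 receptors were separated between the groups, and the change of Ifih1 was 1.24 on the log2 scale (standard error 0.14, adjusted p = 1.4e-07).

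Their adaptors and the other RNA-binding effectors had log2 fold changes between -0.09 and 0.53. Trim25, a ubiquitin ligase of RIG-I signalling, rose from 40.4, 42.9 and 45.3 CPM to 64.0, 61.4 and 60.2 CPM (log2 fold change 0.53, standard error 0.07, adjusted p = 1.1e-06). Mavs, the mitochondrial adaptor of the receptors, measured 13.5, 13.7 and 11.3 CPM in sgCtrl and 16.2, 15.3 and 15.5 CPM in sgSgf29 (log2 fold change 0.29, standard error 0.11, adjusted p = 0.024). The call for Mavs was lost in DESeq2 (adjusted p = 0.066) and without the third sgCtrl library (0.11) or the first sgSgf29 library (0.061). Adar, which edits adenosines in double-stranded RNA, passed the threshold although its groups overlapped. It measured 83.8, 72.8 and 61.3 CPM in sgCtrl and 83.7, 93.0 and 97.8 CPM in sgSgf29 (log2 fold change 0.34, standard error 0.09, adjusted p = 0.0021), and 1365 bases of its exons overlap Chrnb2 on the opposite strand. Eif2ak2, which encodes the RNA-activated kinase PKR, did not pass, at 44.5, 48.2 and 43.1 CPM in sgCtrl and 40.4, 43.9 and 42.8 CPM in sgSgf29 (log2 fold change -0.09, standard error 0.07, adjusted p = 0.28). Counted together, 10 of the 11 sensors and adaptors were higher, where 35.4% of all genes tested were higher. The 10 include Ifi204, whose direction is no support, and Mavs. The summed level of the 11 was 471.1 ± 3.74 CPM in sgSgf29 against 283.5 ± 5.64 CPM in sgCtrl (SD, n = 3).

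**Figure D3:**
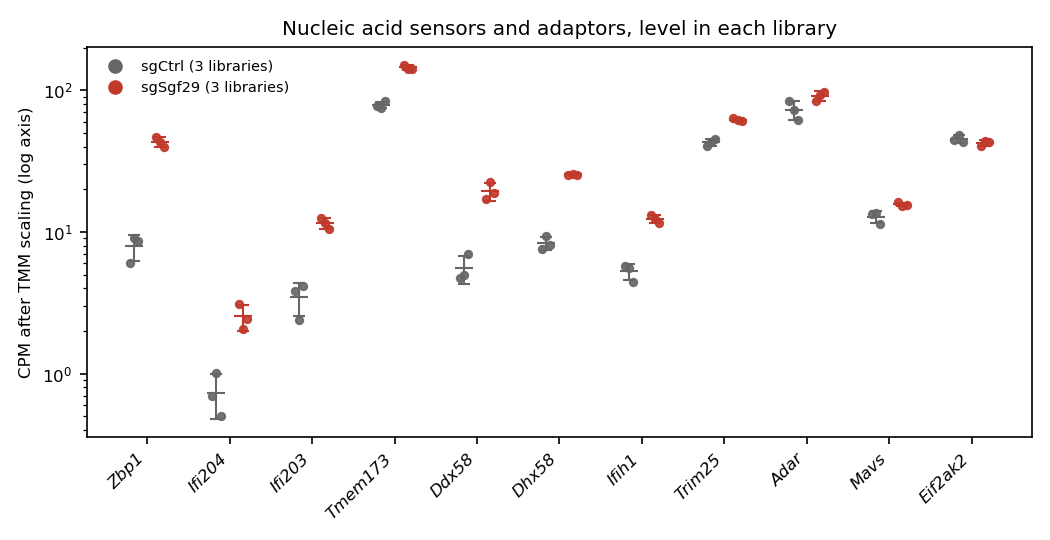
Level of the 11 nucleic acid sensors and adaptors in each library, in CPM after TMM scaling on a log axis, with dashes for the means and bars for the SD of 3 libraries. The sgSgf29 points lie above all sgCtrl points for 9 of the genes, and those of Adar and Eif2ak2 overlap. Of all genes tested, 37.0% were so separated. The 9 include Ifi204, whose direction is no support.

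Isg15 and the protease that reverses its attachment were low in the control cells and higher in the sgSgf29 cells. Neither reached the filter in every sgCtrl library, so their direction is no support. Usp18, which removes ISG15 and also restrains the interferon receptor, measured 0.127, 0.201 and 0.050 CPM in sgCtrl and 2.17, 2.57 and 1.86 CPM in sgSgf29. Those sgCtrl values rest on 6 counts in all, and the log2 fold change was 4.14 (standard error 0.47, adjusted p = 1.2e-07). Isg15, on chromosome 4 from 156199424 to 156200818, encodes the modifier itself and measured 1.27, 0.402 and 0.749 CPM in sgCtrl and 3.34, 3.74 and 3.66 CPM in sgSgf29 (log2 fold change 2.14, standard error 0.30, adjusted p = 2.7e-06). Herc6, the mouse ligase for ISG15, went the other way, from 12.0, 8.44 and 7.79 CPM to 6.80, 6.94 and 6.79 CPM (log2 fold change -0.45, standard error 0.16, adjusted p = 0.016). The call for Herc6 was lost when single libraries were left out. Without the first sgCtrl library the log2 fold change was -0.24 with an adjusted p of 0.19, and without the second sgSgf29 library the adjusted p was 0.051.

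The IFITM proteins, which hinder viral entry at membranes, held the most abundant member. Ifitm1, on chromosome 7 from 140967429 to 140969827, measured 409, 347 and 366 CPM in sgCtrl and 1415, 1377 and 1529 CPM in sgSgf29. It was higher in every sgSgf29 library, with a change of 1.95 on the log2 scale (standard error 0.08, adjusted p = 1.9e-14). Ifitm6, a family member encoded nearby on the same chromosome, rose from 13.9, 14.1 and 14.2 CPM to 52.0, 52.1 and 55.8 CPM (log2 fold change 1.92, standard error 0.08, adjusted p = 4.6e-14). Ifitm3 measured 1.46, 1.07 and 0.949 CPM in sgCtrl and 3.98, 2.66 and 3.76 CPM in sgSgf29 (log2 fold change 1.58, standard error 0.27, adjusted p = 3.3e-05). Ifitm2 did not follow, at 117, 110.1 and 107 CPM in sgCtrl and 119, 100.5 and 112 CPM in sgSgf29 (log2 fold change -0.01, standard error 0.07, adjusted p = 0.90). Scaled to library size only, Ifitm2 was called higher (0.22 on the log2 scale, adjusted p = 0.0066), a scaling under which the median of all genes moved to 0.24. Of the exons of Ifitm2, 268 bases overlap Gm45717 on the same strand.

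Ifitm1 weighed heavily in the set as a whole. The summed level of the 57 members was 1544.2 ± 45.5 CPM in sgCtrl and 3092.2 ± 76.7 CPM in sgSgf29 (SD, n = 3), a ratio of 2.00, and Ifitm1 made up 24.2% of the first sum and 46.6% of the second. Without Ifitm1 the ratio was 1.41. Per kilobase of exon, Ifitm1 was also the most abundant member in both groups, at 341.7 CPM per kb in sgCtrl and 1317 in sgSgf29. In sgCtrl it was followed by Ifitm2 at 169.8 and Ly6e at 131.9 CPM per kb. In sgSgf29 the next were Ifitm2 at 168.6, Slfn2 at 124.2 and Ifi27 at 107.4 CPM per kb, with Ly6e at 89.3.

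Of the IFIT and MX genes of the set, all but Ifit2 were scarcely expressed. Ifit1, whose product binds viral RNA ends, had 0 counts in the sgCtrl libraries and 13 in the sgSgf29 libraries together. That is 3.68-fold higher than a floor of 3 counts over the group, and the 95% interval of the ratio begins at 2.59, counting error only. Ifit3 had 1 count in all, Mx1 had 1 count, and Mx2 had 7 counts, all in 1 sgSgf29 library. The MX proteins are GTPases that trap viral nucleocapsids. Ifit2 was the only IFIT gene tested. It measured 2.41, 2.48 and 1.45 CPM in sgCtrl and 3.63, 3.34 and 3.62 CPM in sgSgf29 (log2 fold change 0.76, standard error 0.24, adjusted p = 0.0083), and the call was lost without the third sgCtrl library (adjusted p = 0.058).

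The OAS enzymes make the oligoadenylates that activate RNase L, and 2 of the 5 listed could be tested. Oas2 measured 1.08, 0.469 and 0.350 CPM in sgCtrl and 2.05, 1.80 and 2.05 CPM in sgSgf29, and Oas3 measured 0.572, 0.402 and 0.250 CPM in sgCtrl and 1.70, 1.44 and 1.47 CPM in sgSgf29. Both were higher, with log2 fold changes of 1.66 (adjusted p = 0.00045) and 1.93 (adjusted p = 0.00018), and that of Oas2 was 2.27 without the first sgCtrl library. Neither reached the filter in every sgCtrl library, so their direction is no support. Oas1a, Oasl1 and Oasl2 reached at most 0.250 CPM in any library.

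**Figure D4:**
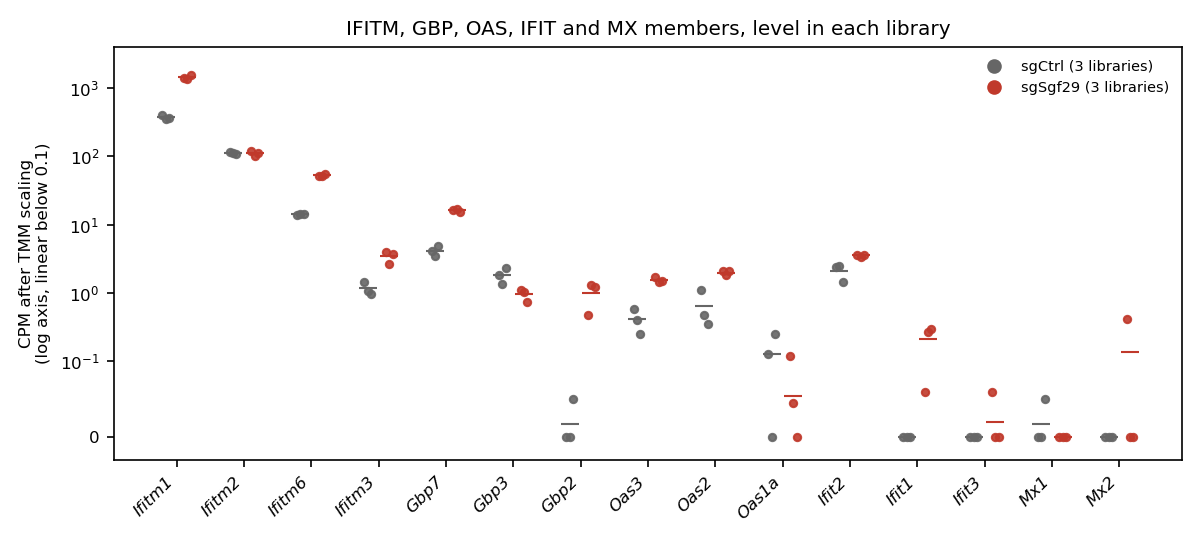
Level of IFITM, GBP, OAS, IFIT and MX members in each library, in CPM after TMM scaling on an axis that is logarithmic above 0.1 and linear below it, with dashes for the means of 3 libraries. Ifitm1 reached 1529 CPM, whereas Ifit1, Ifit3, Mx1 and Mx2 stayed below 1 CPM in all libraries.

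Guanylate-binding proteins and immunity-related GTPases attack the vacuoles of intracellular pathogens. Gbp7 measured 4.07, 3.48 and 4.80 CPM in sgCtrl and 16.5, 17.0 and 15.5 CPM in sgSgf29 (log2 fold change 1.97, standard error 0.14, adjusted p = 1.1e-10). Igtp and Irgm1, both of the GTPases of the second kind, were higher by 0.89 and 0.91 on the log2 scale (adjusted p = 5.1e-06 and 2.5e-05). Gbp3, encoded in the same cluster on chromosome 3 as Gbp7, was lower, at 1.84, 1.34 and 2.30 CPM in sgCtrl and 1.11, 1.04 and 0.733 CPM in sgSgf29. Its log2 fold change was -0.95 (standard error 0.32, adjusted p = 0.012), and the call was lost without the third sgCtrl library (adjusted p = 0.082) or the third sgSgf29 library (0.062). Gbp2 had 1 count in the sgCtrl libraries together and 62 in the sgSgf29 libraries, a ratio of 52.6 (95% interval 9.10 to 2110, counting error only), but it stayed under the filter because its first sgSgf29 library held 8 counts. With no filter on low counts Gbp2 and Ifit1 were called higher. Iigp1 had 0 counts in all 6 libraries. Genes of the GBP cluster resemble each other and can share reads, and 162 bases of the exons of Igtp overlap Irgm2 on the same strand.

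Of the set's genes of ADP-ribosylation, the 3 that could be tested were higher. Parp10 and Parp11, outside the set, are named after their values were seen. The mono-ADP-ribosyltransferase gene Parp10 was lower (log2 fold change -0.31, adjusted p = 0.0011), whereas Parp11 was higher (0.79, adjusted p = 4.7e-05). Parp14, a mono-ADP-ribosyltransferase encoded on chromosome 16 from 35831892 to 35871518, measured 0.953, 2.14 and 1.90 CPM in sgCtrl and 13.0, 13.1 and 14.3 CPM in sgSgf29. The difference was 3.00 on the log2 scale (standard error 0.19, adjusted p = 2.9e-11). Parp9 and the ubiquitin ligase Dtx3l, which form a complex, were higher by 0.90 and 1.14 (adjusted p = 4.4e-07 and 9.8e-08). Dtx3l rose from 9.60, 12.4 and 15.4 CPM to 25.4, 28.9 and 28.6 CPM. The exons of the pair overlap by 458 bases on opposite strands. Parp12 had 0 counts in all libraries.

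Of the Schlafen genes, a family linked to quiescence and growth control in blood cells, the set holds Slfn2 and Slfn5, and both were higher. Slfn2 measured 70.2, 67.0 and 68.5 CPM in sgCtrl and 216, 209 and 195 CPM in sgSgf29 (log2 fold change 1.59, standard error 0.07, adjusted p = 2.9e-14). Slfn5 was under 1 CPM in each sgCtrl library, at 0.508, 0.335 and 0.799 CPM, and measured 4.86, 5.18 and 4.20 CPM in sgSgf29 (log2 fold change 3.05, standard error 0.29, adjusted p = 1.1e-08). Slfn5 did not reach the filter in every sgCtrl library, so its direction is no support. Samd9l, a growth-restraining gene of myeloid cells, did not pass, at 65.9, 69.2 and 59.4 CPM in sgCtrl and 67.0, 69.4 and 62.8 CPM in sgSgf29 (log2 fold change 0.04, standard error 0.07, adjusted p = 0.65), although it was called higher with library size scaling (0.27, adjusted p = 0.0033).

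Of the 16 remaining antiviral effectors, 12 were higher, 2 were lower and 2 could not be tested. Of all genes tested, 35.4% were higher and 34.4% were lower. The 12 include Ifi27l2a, Rsad2 and Xaf1, which did not reach the filter in every sgCtrl library, so their direction is no support. Ifi27l2a, a small mitochondrial protein of the ISG12 family, changed most among those above 2 CPM. It measured 0.508, 1.61 and 0.749 CPM in sgCtrl and 12.8, 12.4 and 11.7 CPM in sgSgf29 (log2 fold change 3.71, standard error 0.23, adjusted p = 1.9e-11). Its relative Ifi27 rose from 54.4, 49.7 and 50.3 CPM to 109, 106 and 116 CPM (log2 fold change 1.10, standard error 0.07, adjusted p = 1.2e-11). Cmpk2, a mitochondrial nucleotide kinase, measured 2.48, 3.62 and 3.80 CPM in sgCtrl and 13.7, 16.3 and 13.7 CPM in sgSgf29 (log2 fold change 2.13, standard error 0.16, adjusted p = 2.8e-10). Rsad2, the neighbour of Cmpk2 that encodes viperin, had 3 counts in sgCtrl and 47 in sgSgf29, a ratio of 13.3 (95% interval 4.28 to 66.8, counting error only). The 3 sgCtrl counts lay in the second library. The fitted log2 fold change of 3.58 was 2.91 without the third sgCtrl library and 6.91 without the second, where sgCtrl is left at 0 and the value depends on the prior count, and Rsad2 was called in both. Trim30a, a negative regulator of Toll-like receptor signalling, rose from 3.37, 3.82 and 3.00 CPM to 11.5, 13.6 and 10.9 CPM (log2 fold change 1.83, standard error 0.16, adjusted p = 2.3e-09), and it has near-identical copies beside it.

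Further effectors were higher by smaller amounts or from lower levels. Xaf1, which binds the apoptosis inhibitor XIAP, measured 0.572, 0.268 and 0.999 CPM in sgCtrl and 2.52, 2.84 and 2.83 CPM in sgSgf29 (log2 fold change 2.08, standard error 0.34, adjusted p = 1.6e-05, and 2.67 without the third sgCtrl library). Nmi, an interferon-induced partner of transcription factors, measured 1.91, 1.07 and 2.00 CPM in sgCtrl and 4.81, 4.55 and 4.10 CPM in sgSgf29 (log2 fold change 1.41, standard error 0.24, adjusted p = 2.7e-05). Sp100, a component of PML nuclear bodies, rose from 38.2, 45.6 and 43.6 CPM to 84.3, 90.9 and 85.7 CPM (log2 fold change 1.03, standard error 0.07, adjusted p = 1.2e-10). The 3 sgSgf29 libraries were above the sgCtrl libraries for each of these genes, though the direction of Xaf1 is no support. The exonuclease gene Isg20 was higher by 0.74 on the log2 scale, the helicase gene Helz2 by 0.49, the secreted glycoprotein gene Lgals3bp by 0.49 and Ifi35, whose product binds NMI, by 0.23. Of these, Lgals3bp was the least secure (adjusted p = 0.026), and its call was lost in DESeq2 (0.066) and without the third sgCtrl library (0.13), the first sgSgf29 library (0.12) or the second (0.050).

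Bst2 and Ly6e were lower, and both encode membrane-anchored proteins of abundant transcripts. Ly6e, which restricts entry of some enveloped viruses, found at chromosome 15, 74955025 to 74959904, fell from 334, 325 and 333 CPM to 242, 208 and 221 CPM (log2 fold change -0.56, standard error 0.07, adjusted p = 2.1e-07). Bst2, the tetherin that holds budding virions at the cell surface, measured 68.1, 60.2 and 66.5 CPM in sgCtrl and 53.6, 50.4 and 52.6 CPM in sgSgf29 (log2 fold change -0.32, standard error 0.07, adjusted p = 0.00040). All 3 sgSgf29 libraries were below the sgCtrl libraries for both. Scaled to library size only, Bst2 no longer passed (-0.08).

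The spread between libraries differed between the groups. Over the tested members the median coefficient of variation was 16.0% in sgCtrl and 6.54% in sgSgf29, and it was above 20% for 21 members in sgCtrl and for 4 in sgSgf29. These are descriptions with no test, and many members had few counts in sgCtrl. In total, 12 members were not tested. Ifi44, Parp12 and Iigp1 had 0 counts in all libraries, and Ifit1, Ifit3, Mx1, Mx2, Oas1a, Oasl1, Oasl2, Gbp2 and Rtp4 had too few, with no library above 1.31 CPM. No change could be measured for these with the filter used, and without it only Gbp2 and Ifit1 among them passed the threshold.

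The genes around the members in the pathway were taken from lists written with earlier results known. Of 142 such genes, 141 were in the table and 86 were tested, of which 62 were higher, 17 were lower and 7 did not pass. That is 72.1% higher and 19.8% lower, against 35.4% and 34.4% of all genes tested. Some of the 62 did not reach the filter in every sgCtrl library, so their direction is no support. Among them were Gbp4, Cxcl10, Ifi209, Gbp9, Ube2l6, Epsti1, Tlr7, Trim30b and Trim30d, and the shares and the lists below include them. The counts per list below are to be read beside the same shares over all genes. The median log2 fold change of the 86 was 0.69. The 21 interferon genes, among them Ifnb1, the Ifna genes, Ifng and the lambda interferons, had 0 counts in each of the 6 libraries. A count of 0 allows up to 0.135 to 0.201 CPM per library, counting error only. How reads that match several genes were counted is not known, so this does not cover reads shared among related genes such as the Ifna genes.

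Receptors and signal transducers were detected in both groups. Of 11 tested genes of the receptors, kinases and transcription factors, 10 were higher and 1 was lower, with a median of 0.72. The type I receptor chains Ifnar1 and Ifnar2 were higher by 0.95 and 0.72 on the log2 scale (adjusted p = 1.1e-10 and 9.1e-09). The chains of the interferon gamma receptor moved in opposite directions. Ifngr1 fell from 552, 517 and 528 CPM to 282, 271 and 285 CPM (log2 fold change -0.93, adjusted p = 6.6e-11), whereas Ifngr2 rose from 30.1, 27.1 and 29.1 CPM to 74.1, 74.2 and 67.9 CPM (1.32, adjusted p = 2.9e-12). The kinase gene Jak2 changed most of this list, from 19.9, 20.2 and 20.3 CPM to 70.2, 77.2 and 73.6 CPM (1.87, adjusted p = 1.7e-14).

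The transcription factor genes Stat2 and Irf9 were higher by 0.36 and 1.02 on the log2 scale (adjusted p = 0.0032 and 3.1e-07). Irf9 measured 9.60 ± 1.53 CPM in sgCtrl and 19.4 ± 1.81 CPM in sgSgf29 (SD, n = 3), with no overlap of the groups. Irf7, which drives interferon alpha genes once sensors are engaged, measured 1.59, 1.61 and 1.65 CPM in sgCtrl and 12.0, 13.2 and 14.7 CPM in sgSgf29, a change of 3.04 on the log2 scale (standard error 0.17, adjusted p = 3.2e-12). It was the largest change among the interferon regulatory factors tested. Of the 6 tested regulatory factors in that list, 4 were higher, 1 was lower and 1 did not pass. Irf2 and Irf1 were higher by 1.07 and 0.68 (adjusted p = 8.5e-10 and 4.2e-08). Irf3, named with Irf5 after the values were seen, was lower (-0.28, adjusted p = 0.00077), and Irf5 did not pass (0.09, adjusted p = 0.39).

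**Figure D5:**
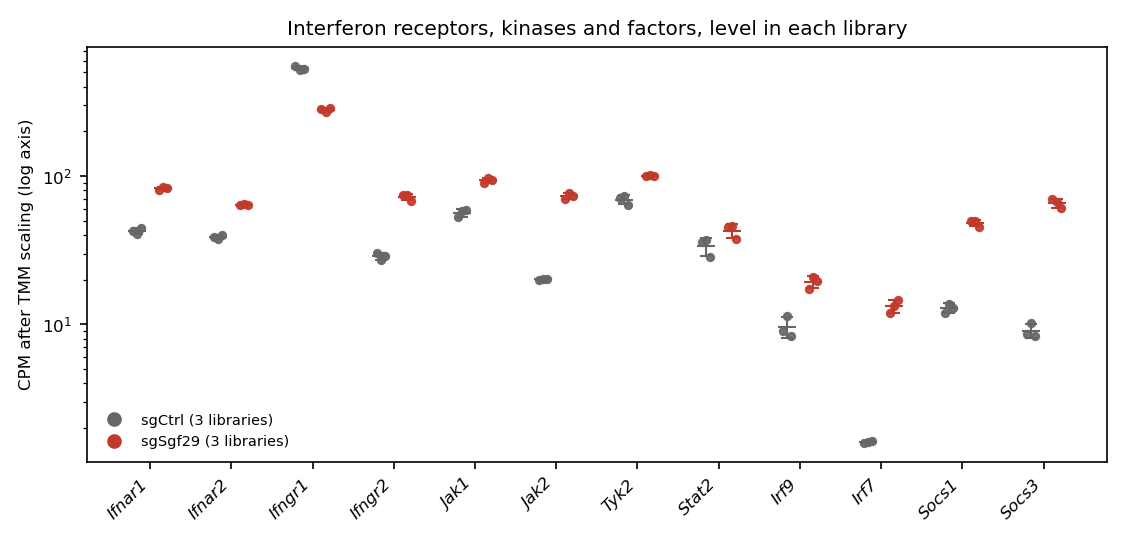
Level of interferon receptor chains, kinases, Stat2, Irf9, Irf7 and the feedback inhibitors Socs1 and Socs3 in each library, in CPM after TMM scaling on a log axis, with dashes for the means and bars for the SD of 3 libraries. Ifngr1 is the one gene shown whose sgSgf29 points lie below the sgCtrl points.

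Inhibitors of the pathway were higher along with its targets. Of 9 tested genes that restrain interferon signalling, 8 were higher and 1 was lower. Socs3 rose from 8.64, 10.2 and 8.34 CPM to 70.0, 66.5 and 60.9 CPM (log2 fold change 2.87, adjusted p = 9.8e-16) and Socs1 from 11.9, 13.8 and 12.9 CPM to 49.5, 49.4 and 45.6 CPM (1.90, adjusted p = 1.8e-13). Both are feedback inhibitors of JAK kinases and are induced by many cytokines. Nlrx1, a mitochondrial inhibitor of MAVS signalling, was higher by 1.13 (adjusted p = 1.4e-10). Of 11 tested sensing receptors, adaptors and kinases outside the set, 9 were higher and 1 was lower. The smallest adjusted p was that of the Toll-like receptor adaptor gene Myd88, which rose from 23.9, 23.6 and 24.1 CPM to 75.8, 70.0 and 72.4 CPM (adjusted p = 1.1e-13). The kinase subunit genes Ikbkg and Ikbke were higher by 0.82 and 1.05 on the log2 scale (adjusted p = 5.9e-09 and 8.0e-09). The 1 that was lower was Mb21d1, which encodes the DNA sensor cGAS and is named after its values were seen. It measured 17.8, 19.2 and 17.1 CPM in sgCtrl and 13.4, 14.1 and 15.7 CPM in sgSgf29 (log2 fold change -0.32, adjusted p = 0.010).

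Nucleases that clear the cell's own nucleic acids went mostly the other way. Of 9 tested, 6 were lower and 1 was higher, with a median log2 fold change of -0.44, and the 6 include the near-identical copies Rnaset2a and Rnaset2b. Dnase2a, the lysosomal DNase, fell by 1.22 (adjusted p = 3.8e-12) and Rnaseh2a, a subunit of the enzyme that cuts RNA paired with DNA, fell by 0.85 (adjusted p = 1.1e-09). Samhd1, which breaks down deoxynucleotides, was the exception and rose from 52.2, 52.1 and 58.1 CPM to 221, 219 and 204 CPM (1.99, adjusted p = 1.9e-15). Trex1, the main cytosolic DNA exonuclease, was listed at 0 counts in all libraries. All 1147 bases of its exons overlap Atrip on the same strand, so the 0 cannot be read as absent expression. Among 40 other tested interferon-induced genes, 30 were higher and 7 were lower, with Slfn1, Trim14 and N4bp1 carrying the smallest adjusted p. Slfn1 rose from 4.64, 7.37 and 6.94 CPM to 64.9, 62.1 and 57.3 CPM (3.27, adjusted p = 2.8e-15), and Trim14 and N4bp1 were higher by 2.41 and 1.04.

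The difference coincided with a large difference in genes of mature myeloid cells. Of 25 listed markers of monocytes, macrophages and neutrophils, 22 were tested. Among the tested, 18 were higher, 3 were lower (Ly6c2, Ltf and Camp) and 1 did not pass, against 35.4% higher and 34.4% lower of all genes tested. The 18 include Itgam, also counted above among the leukemia cell markers. They also include Fcgr1, at 0 counts in every sgCtrl library, and Itgax, which was under the filter there. The direction of Fcgr1 and Itgax is no support. The summed level of the list was 10860 to 11464 CPM in the sgCtrl libraries and 28375 to 29900 CPM in the sgSgf29 libraries. Much of that sum was S100a9 (mean 3447 CPM in sgCtrl and 13074 CPM in sgSgf29) and S100a8 (2779 and 7967 CPM). Mrc1 and Marco were at 0 in all libraries. The part of maturation in the interferon-related values was not tested. Of 8 markers of plasmacytoid dendritic cells, cells known for high interferon output, 3 could be tested, of which 0 were higher and 1 was lower, and the defining Siglech was at 0 in all libraries. Markers of B cells reached at most 1.07 CPM and those of T and NK cells at most 0.799 CPM, with Ms4a1, Cd3e and Cd2 at 0. In bulk RNA, fewer cells expressing a gene and less RNA of it per cell cannot be told apart.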

How the data were processed

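Messenger RNA of 6 libraries was measured. The authors deposited raw counts for each gene, made from reads aligned with STAR to the mouse genome (submitters' processing notes: STAR 2.6.0a, GRCm38). The study's methods name featureCounts and another STAR version, whereas the table holds 5 bookkeeping entries of the kind htseq-count writes. These took 25.8% to 31.4% of each library and were left out. For the annotation and the strand setting of the counting, the value is not given in the sources used here. The kit was directional. The 8 chromatin immunoprecipitation samples were not analysed here.

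Genes passing filterByExpr (11169 of 22155, minimum count 10, minimum total 15) were scaled by TMM (trimmed mean of M values) and compared by edgeR 4.0.16 (R 4.3.3), quasi-likelihood test, with Benjamini-Hochberg adjustment over all of them, at an adjusted p under 0.05. CPM are counts scaled to a common effective library size. The biological coefficient of variation was 6.61%. Alternatives were other scalings and filters, DESeq2 1.42.0, limma-voom (limma 3.58.1), a likelihood ratio test, a stricter threshold, a replicate block and each library left out in turn.

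The members and the lists of pathway and marker genes were chosen with earlier results of these data known, and the counts over them are descriptions. Full values were given for members called with a 2-fold change or more and at least 2 CPM in the higher group and for every sensor or adaptor of at least 2 CPM, and for pathway genes for the receptors, Stat2, Irf9, Ifnb1, Irf7 and up to 3 called genes per list, those of smallest adjusted p. Other members are accounted for by role, and 1 pathway gene is not reported here. Promoters are RefSeq windows on GRCm38.p6, scanned for motif letters on both strands. Exon overlaps and exon lengths are from the GENCODE annotation of GRCm38. Libraries within a group differed by more than sampling noise (chi-square over its degrees of freedom 4.60 to 16.1).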

Additional observations from a re-analysis of the deposited data

How the results depend on the processing

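The count of 38 members that were higher stayed between 27 and 40 under the alternatives, and between 36 and 39 when 1 library was left out. The 27 came with a filter of at least 5 CPM in 3 libraries, where 33 members were tested and 11 of the 38 were no longer among them. DESeq2, limma-voom and the likelihood ratio test each gave 38 higher and 4 lower, and DESeq2 shared 36 of the 38. The count of 4 members that were lower was 2 with library size scaling and 2 at an adjusted p under 0.01, and 3 to 4 when 1 library was left out. Among the pathway genes, 62 higher and 17 lower became 56 to 61 and 15 to 18 without 1 library, and the number lower was 9 with library size scaling. The log2 fold change of Sgf29 was -1.57 to -1.33 without 1 library. Library size scaling raised the share of calls that were higher from 50.7% to 70.0% over all genes and from 90.5% to 95.2% over the members. It turned Ifitm2 from -0.01 to 0.22, called Samd9l higher and lost Herc6 (-0.22) and Bst2. Of the 1144 other comparisons of single genes with an alternative, 1124 kept their direction and side of the threshold, 18 were no longer past it, 1 newly passed it and 1 reversed. The causes were not tested.

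The replicate block gave 38 higher and 4 lower members. Libraries of the same number did not deviate together (correlations of 0.0051, 0.055 and 0.078, all under 0.1), and the first sgCtrl library correlated better with the third sgSgf29 library (0.011) than with the first, so the numbers were not used to pair libraries. Depth limits the members under about 1 CPM, where 3 counts are 0.135 to 0.201 CPM.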

Other observations

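Genes beside the members, named after their values were seen, gave further values of the same families. Ube2l6 and Uba7, the conjugating and activating enzymes for ISG15, were both higher. Ube2l6 measured 0.191, 0.670 and 0.300 CPM in sgCtrl and 3.46, 3.52 and 3.08 CPM in sgSgf29 (log2 fold change 3.13, standard error 0.35, adjusted p = 1.0e-07 in edgeR), and Uba7 measured 20.7, 23.0 and 16.6 CPM and 39.7, 49.2 and 44.7 CPM (1.16, adjusted p = 5.4e-09). The guanylate-binding protein gene Gbp9 measured 0.0635, 0.201 and 0.0999 CPM in sgCtrl and 2.23, 2.30 and 1.27 CPM in sgSgf29 (3.95, adjusted p = 6.9e-07). Ube2l6 and Gbp9 did not reach the filter in every sgCtrl library, so their direction is no support.

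The Schlafen genes did not move alike. Slfn8 and Slfn9 were higher by 1.05 and 0.50 on the log2 scale (adjusted p = 0.00057 and 0.00045), as were Slfn1, Slfn2 and Slfn5. By contrast, Slfn3 was lower (log2 fold change -0.43, adjusted p = 0.038), and Slfn4 did not pass, at 211, 211 and 115 CPM in sgCtrl and 167, 179 and 139 CPM in sgSgf29 (-0.14, adjusted p = 0.40). The copies Trim30b and Trim30d of the Trim30 cluster were higher by 2.66 and 2.54 (adjusted p = 7.7e-08 and 4.3e-07), which, given the shared sequence, need not be independent of Trim30a. The chemokine gene Cxcl10, an interferon target, had 0, 0.268 and 0 CPM in sgCtrl and 0.762, 0.856 and 1.22 CPM in sgSgf29. Trim30b, Trim30d and Cxcl10 did not reach the filter in every sgCtrl library, so their direction is no support.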
